A study of Mus musculus with 12 samples.

Results

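The first step of the NS-GFP reporter scale was the comparison of 3 samples labelled NS-GFP2+ with 3 labelled NS-GFP1+, 6 of the 12 samples of the series, taken from the deposited value table by their labels. All were LSK cells of bone marrow, which are negative for lineage markers and carry Sca1 and Kit, from C57BL/6 mice with an NS-GFP transgene in which a region of the NS promoter drives GFP. In the published use of this reporter NS stands for nucleostemin, a nucleolar protein encoded by Gnl3. Cells were sorted by GFP level into NS-GFP1+, NS-GFP2+, NS-GFP3+ and NS-GFP4+, and every sample, NS-GFP1+ included, came from transgenic animals. The labels give no age or sex, do not say whether a sample pooled animals or what a replicate number stands for, and do not state which end of the numbering is brightest. P-values therefore measure the spread between 3 samples a fraction, which may be in part technical.

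Each sample was hybridised to a single-colour Agilent mouse array with 42022 probes besides 49 control spots. Values are log2 signals with nearly the same distribution in every column, so a difference of 1 is a 2-fold difference in signal. Levels are compared between samples for 1 probe, never between probes. Testing was limited to probes that exceeded the column median in all 3 samples of 1 fraction or more, because no detection flags were given, and 20920 probes (49.8%) met this. Of these, 15026 carried 1 gene symbol in the platform annotation, for 11337 genes.

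LSK cells are a mixture. They hold long-term hematopoietic stem cells together with multipotent progenitors, some of which have begun to express genes of the lymphoid or myeloid lineages while still lacking the surface markers of those lineages. The earliest B-lineage program is set by transcription factors such as EBF1, which switch on the surrogate light chain and the signalling chains of the pre-B cell receptor. The sort label was checked on the arrays. Kit, the receptor used in the sort, lay at the 92.8 to 95.1 percentile of its column in every sample, and Cd8a, a T cell lineage marker, at the 0.400 to 17.1 percentile. Cd8a does not stand for all T and NK cell genes. In a list of these, 5 probes of 4 genes exceeded the column median in every sample. Ly6a, which encodes Sca1, was not analysed here. Pax5 and Ms4a1, markers of committed B cells, lay below the column median in every sample. Other B-cell genes were brighter, and 3 probes of the B-cell list, Vpreb1 among them, exceeded the column median in every sample.

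At the first step 87 probes passed the threshold of adjusted p under 0.05 (limma over all 12 samples, Benjamini-Hochberg), 0.416% of those tested. Of these, 50 were higher in NS-GFP2+ (0.239%) and 37 were lower (0.177%). Of the 50, 8 had met the filter only in NS-GFP3+ or NS-GFP4+. The falls were the larger changes, with a median fold of 2.88 (1.34 to 7.13) against 1.68 (1.32 to 4.19) for the rises, and 24 falls and 12 rises reached 2-fold. The 87 probes named 68 genes, 40 that rose and 28 that fell, and 14 probes had no gene name. In all 87 the 3 same-numbered pairs moved the same way and the fractions did not overlap. The 87 were called on these same samples, so this adds no support to the calls. Over all tested probes, fractions did not overlap for 6.74% in the higher and 4.9% in the lower direction. At an unadjusted p under 0.05 there were 860 higher and 557 lower probes. Fitted with a block for the replicate number, 473 probes passed (2.26%), 301 higher (1.44%) and 172 lower (0.822%), and all 87 were among them. Scaled to the array spike-ins instead, on 11 per-array files without NS-GFP3+ replicate 3, 69 probes passed, 25 higher and 44 lower. The same files scaled to the 75th percentile of each array gave 38 higher and 37 lower. Without the filter on dim probes the value table gave 15 higher and 28 lower. Fitted on NS-GFP2+ and NS-GFP1+ alone, it gave 4 higher and 23 lower. The split between directions thus differed between settings, and why was not tested.

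**Figure D1:**
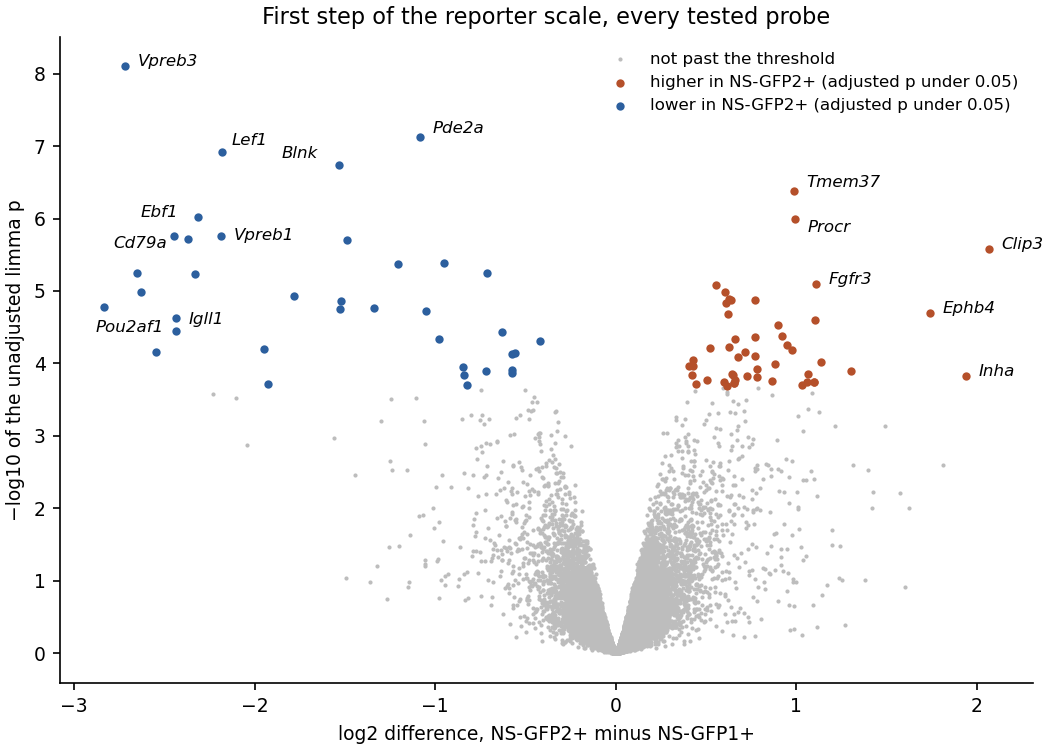
Every tested probe at the first step, by its log2 difference (NS-GFP2+ minus NS-GFP1+, horizontal axis) and the −log10 of its unadjusted limma p (vertical axis). The 50 probes in red and the 37 in blue passed the threshold, and the labelled B-lineage genes lie at the far left, down to -2.83 for Pou2af1, while the largest rise is 2.07 for Clip3.

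Replicate 3 stood apart from the other two in every fraction, on a second principal component that held 26.1% of the variance of the tested probes. The per-array file of NS-GFP3+ replicate 3 repeated all 42071 values of NS-GFP2+ replicate 3, whereas their columns in the value table were equal at 70, and the value table was used throughout. The first-step count lay between 18 and 88 when any 1 of the 12 samples was left out. It was 18 without NS-GFP2+ replicate 3, 4 higher and 14 lower. From replicates 1 and 2 alone, in all fractions, 155 probes passed, of which 52 were among the 87.

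Several of the largest falls were genes of the B-cell program. Igll1, Vpreb1 and Vpreb2 encode the surrogate light chain, which pairs with the immunoglobulin heavy chain before a light chain gene is rearranged. The 250 bases upstream of the annotated start of Vpreb1, Igll1 and Cd79a are shown because these probes fell together, and that of Procr because it was the rise of a stem-cell surface marker with the smallest p among the stem-cell genes. The windows are RefSeq sequence of GRCm38.p6, written 5′ to 3′ on the gene's strand, at chr16:16869256-16869505 (minus strand) for Vpreb1, chr16:16863986-16864235 (minus strand) for Igll1, chr7:24897247-24897496 (plus strand) for Cd79a and chr2:155750967-155751216 (plus strand) for Procr. Capitals mark the E-box CAGCTG, a core bound by E proteins.
Vpreb1: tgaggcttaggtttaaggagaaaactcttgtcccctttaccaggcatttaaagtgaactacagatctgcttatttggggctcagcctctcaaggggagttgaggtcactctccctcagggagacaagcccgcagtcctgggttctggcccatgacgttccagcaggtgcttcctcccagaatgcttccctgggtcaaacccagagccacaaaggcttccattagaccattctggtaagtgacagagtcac
Igll1: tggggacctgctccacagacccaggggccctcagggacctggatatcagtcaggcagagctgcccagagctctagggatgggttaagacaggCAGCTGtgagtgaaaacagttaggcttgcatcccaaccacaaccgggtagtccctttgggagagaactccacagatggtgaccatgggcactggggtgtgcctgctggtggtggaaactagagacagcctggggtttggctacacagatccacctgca
Cd79a: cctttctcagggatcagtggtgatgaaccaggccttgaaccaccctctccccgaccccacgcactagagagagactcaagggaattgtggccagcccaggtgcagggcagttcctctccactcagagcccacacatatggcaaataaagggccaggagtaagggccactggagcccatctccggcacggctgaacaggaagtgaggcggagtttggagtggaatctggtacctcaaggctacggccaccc
Procr: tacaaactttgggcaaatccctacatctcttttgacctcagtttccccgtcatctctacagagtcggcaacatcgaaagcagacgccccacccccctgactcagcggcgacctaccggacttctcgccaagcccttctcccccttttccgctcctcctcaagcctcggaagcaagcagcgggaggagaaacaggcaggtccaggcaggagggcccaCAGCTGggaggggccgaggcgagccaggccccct
The E-box begins at -158 from the start of Igll1 and at -34 from that of Procr.

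Igll1 measured 7.98, 7.56 and 7.21 in NS-GFP2+ and 10.18, 10.18 and 9.69 in NS-GFP1+ (log2 values). Every NS-GFP2+ sample lay below every NS-GFP1+ sample, and the difference was -2.44 (SE 0.34, limma adjusted p = 0.0143). Vpreb1 had values of 10.64, 10.49 and 10.14 in NS-GFP2+ against 12.80, 12.82 and 12.21 in NS-GFP1+, a difference of -2.19 (SE 0.23, limma adjusted p = 0.00378). Its paralog Vpreb2 fell by 1.79, with 8.41, 8.42 and 8.04 in NS-GFP2+ and 10.22, 10.25 and 9.75 in NS-GFP1+ (limma adjusted p = 0.0111). The 2 genes are close copies, and how far each probe reads the other's transcript is not known here. Vpreb3, a B-lineage protein of the endoplasmic reticulum, had the smallest p of the comparison. It averaged 9.39 ± 0.28 in NS-GFP2+ and 12.11 ± 0.30 in NS-GFP1+ (SD, n = 3 each), a difference of -2.72 (limma adjusted p = 0.000165).

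Cd79a, a signalling chain of the pre-B and B cell receptors, read 7.49, 7.22 and 7.02 in NS-GFP2+ and 10.01, 9.86 and 8.96 in NS-GFP1+. That is a difference of -2.37 (SE 0.25, limma adjusted p = 0.00378), and replicate 3 was the lowest sample of both fractions. Its partner chain Cd79b did not pass, with a difference of -0.47 (adjusted p = 0.0827), but passed with the replicate block (adjusted p = 0.0345). Blnk, the adaptor that couples the pre-B receptor to downstream kinases, varied little within a fraction. It measured 11.03, 11.10 and 11.03 in NS-GFP2+ and 12.60, 12.71 and 12.44 in NS-GFP1+, and fell by 1.53 (SE 0.13, limma adjusted p = 0.000945).

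Transcriptional regulators of the same program were also lower. Ebf1 had 6.33, 5.83 and 6.25 in NS-GFP2+ against 8.77, 8.47 and 8.11 in NS-GFP1+, a difference of -2.31 (SE 0.23, limma adjusted p = 0.00304). Pou2af1, a coactivator of octamer-binding factors in B cells, averaged 6.60 ± 0.33 in NS-GFP2+ and 9.43 ± 0.31 in NS-GFP1+ (SD, n = 3 each), the largest fitted fall at -2.83 (limma adjusted p = 0.0123). Lef1, a mediator of Wnt signalling that is also expressed in early B-lineage cells, fell on both of its probes, by 2.63 and 2.18. The first of these lay below the column median in NS-GFP2+, at 5.08, 4.97 and 4.72 against 7.72, 7.77 and 7.16 in NS-GFP1+. The second was above it throughout, at 7.14, 7.14 and 6.68 in NS-GFP2+ and 9.32, 9.38 and 8.82 in NS-GFP1+. Foxo1, which acts beside EBF1 in early B-lineage cells, fell by 0.58 on one probe (limma adjusted p = 0.0416). Its other probe differed by -0.45 and did not pass (adjusted p = 0.0604). The call of the first was lost under 16 of 22 alternative settings.

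Some falls were in genes with other known roles. Chst3, a chondroitin sulfotransferase, averaged 4.66 ± 0.35 in NS-GFP2+ and 7.11 ± 0.32 in NS-GFP1+ (SD, n = 3 each), a difference of -2.45 (limma adjusted p = 0.00378). Gfra2, a receptor of the GDNF family, fell by 2.44 (limma adjusted p = 0.02), Gpat3, an enzyme of glycerolipid synthesis, by 2.55 (limma adjusted p = 0.0293) and Fxyd6, a regulator of the sodium pump, by 2.33 (limma adjusted p = 0.00714). Gpat3 was uneven and its call was lost under 11 of 21 alternative settings, with 5.21, 3.65 and 5.23 in NS-GFP2+ and 7.42, 7.04 and 7.26 in NS-GFP1+. In NS-GFP2+, 5 of the 37 falling probes lay below the column median in all 3 samples, so the size of such a fall depends on values near the dim end of the array. Bfsp2, known as a filament protein of the eye lens, fell by 1.53, with 10.09, 10.20 and 9.84 in NS-GFP2+ and 11.79, 11.88 and 11.04 in NS-GFP1+ (limma adjusted p = 0.0123).

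Ly6d, Pde2a and Prkcb, like Cx3cr1, Aif1, Mefv, Ncf1, Slc2a6, Chchd10, Slc16a11, Ctla2a, Emcn and Gm5600, lie outside the naming rule and were chosen after their values were seen. Ly6d, a surface marker of B-biased lymphoid progenitors, averaged 9.75 ± 0.26 in NS-GFP2+ and 11.27 ± 0.18 in NS-GFP1+ (SD, n = 3 each), a difference of -1.52 (limma adjusted p = 0.0111). Pde2a, a phosphodiesterase stimulated by cGMP, had 11.36, 11.49 and 11.39 in NS-GFP2+ against 12.61, 12.56 and 12.33 in NS-GFP1+. Its difference of -1.09 had an SE of 0.08 and the second smallest p (limma adjusted p = 0.000795). Both probes of Prkcb, the beta isoform of protein kinase C, fell, by 1.05 and 0.95.

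In the granulocyte and monocyte list 1 gene fell. Irf8, a transcription factor of monocytes and dendritic cells, measured 12.58, 12.68 and 12.43 in NS-GFP2+ and 13.31, 13.31 and 13.24 in NS-GFP1+. The fractions did not overlap and the difference was -0.72 (SE 0.12, limma adjusted p = 0.0418), a call that was lost under 15 of 22 alternative settings. Other falls in genes known from myeloid cells, picked after their values were seen, were Cx3cr1, a chemokine receptor of monocytes, at -0.85 (limma adjusted p = 0.0384), and Aif1, a calcium-binding protein of macrophages, at -0.98 (limma adjusted p = 0.0232). Mefv, the gene of the inflammasome sensor pyrin, differed by -0.84 (limma adjusted p = 0.0434), and Ncf1, a subunit of the phagocyte NADPH oxidase, by -0.42 (limma adjusted p = 0.0238). The second probe of Cx3cr1 differed by -0.59 and did not pass (adjusted p = 0.628). None of the 9 tested genes of the mature neutrophil and macrophage list fell, and their median was above 0, as given with the lists.

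Among the rises were surface proteins and regulators known from stem cells. Procr, the endothelial protein C receptor, whose protein is used to purify hematopoietic stem cells, had 10.47, 10.41 and 10.34 in NS-GFP2+ against 9.55, 9.26 and 9.42 in NS-GFP1+. All 3 NS-GFP2+ samples were higher, and the difference was 0.99 (SE 0.10, limma adjusted p = 0.00304). Esam, an adhesion molecule also used to mark stem cells, stood at 9.12, 9.03 and 9.32 in NS-GFP2+ and 8.05, 8.16 and 8.61 in NS-GFP1+, a difference of 0.88 (limma adjusted p = 0.0367). Hlf, a transcription factor of stem cells, was higher by 0.65, at 11.95, 12.26 and 12.18 in NS-GFP2+ and 11.39, 11.60 and 11.47 in NS-GFP1+ (limma adjusted p = 0.0434). Cdkn1c, the cell cycle inhibitor p57, rose by 0.65 as well, and averaged 8.09 ± 0.11 in NS-GFP2+ and 7.44 ± 0.19 in NS-GFP1+ (SD, n = 3 each; limma adjusted p = 0.0477). Both probes of the sulfotransferase gene Sult1a1 rose, by 1.10 and 0.65. The probe with the larger change read 7.12, 6.77 and 6.81 in NS-GFP2+ against 5.96, 5.53 and 5.90 in NS-GFP1+ (limma adjusted p = 0.0152). Tcf15, a basic helix-loop-helix factor, differed by 1.06, with 6.64, 6.46 and 6.82 in NS-GFP2+ and 5.37, 5.32 and 6.06 in NS-GFP1+ (limma adjusted p = 0.0477).

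The largest rises also held receptors and signalling genes. Of those named here, Ephb4, Rps6ka6, Grb10 and Inha had met the filter only in NS-GFP3+ or NS-GFP4+, so their later values helped to choose them. Ephb4, the receptor of ephrin B2, was at 5.87, 5.81 and 5.80 in NS-GFP2+ and 3.55, 3.98 and 4.72 in NS-GFP1+, a difference of 1.74 (limma adjusted p = 0.0133). Fgfr3, a receptor of fibroblast growth factors, had 6.92, 7.08 and 6.94 in NS-GFP2+ against 5.85, 6.13 and 5.64 in NS-GFP1+, a difference of 1.11 (limma adjusted p = 0.00904). Insrr, the insulin receptor-related receptor, rose by 0.95 (limma adjusted p = 0.0263), Grb10, an adaptor of insulin signalling, by 1.10 (limma adjusted p = 0.0477) and Rps6ka6, a ribosomal S6 kinase, by 1.30 (limma adjusted p = 0.0416). Inha, the inhibin alpha chain, differed by 1.94 with a wider spread, from 5.09, 5.28 and 6.17 in NS-GFP2+ and 3.17, 3.76 and 3.79 in NS-GFP1+ (limma adjusted p = 0.0434). The calls of Grb10, Rps6ka6, Inha and Insrr were lost under 18, 14, 15 and 10 of 21 alternative settings.

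Clip3, a microtubule-associated linker protein, was the largest fitted rise. It measured 5.05, 4.47 and 4.78 in NS-GFP2+ and 2.75, 2.77 and 2.58 in NS-GFP1+, a difference of 2.07 (SE 0.23, limma adjusted p = 0.00464), with all 6 values in the dim part of the array. With 16 added to each signal the difference was 0.95 and did not pass (adjusted p = 0.0591). Of the 50 rising probes, 16 lay below the column median in all 3 NS-GFP1+ samples and 31 lay above it in all 6. Jam3, a junctional adhesion molecule, rose by 1.07 (limma adjusted p = 0.0434) and Rbfox2, a splicing factor, by 1.10 (limma adjusted p = 0.0477), although a second Rbfox2 probe at 0.37 did not pass (adjusted p = 0.845). The calls of Jam3, Rbfox2 and Tcf15 were lost under 12, 19 and 14 of 21 alternative settings. Clip3 and Rbfox2 had met the filter only in NS-GFP3+ or NS-GFP4+. The others of the 15 largest named rises were Vsig2 at 1.03 (lost under 18 of 21), Tmem37 at 0.99 and the long noncoding RNA 2310065F04Rik at 1.14. Tmem37 had the smallest p of the rises, at 9.19, 9.06 and 9.19 in NS-GFP2+ and 8.14, 8.12 and 8.22 in NS-GFP1+ (limma adjusted p = 0.00175). Both probes of Ifitm1, an interferon-induced membrane protein, rose by about the same amount, 0.51 and 0.52. Of the 9 changed genes with more than 1 tested probe, all probes had the same sign in 9 and all passed in 5.

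**Figure D2:**
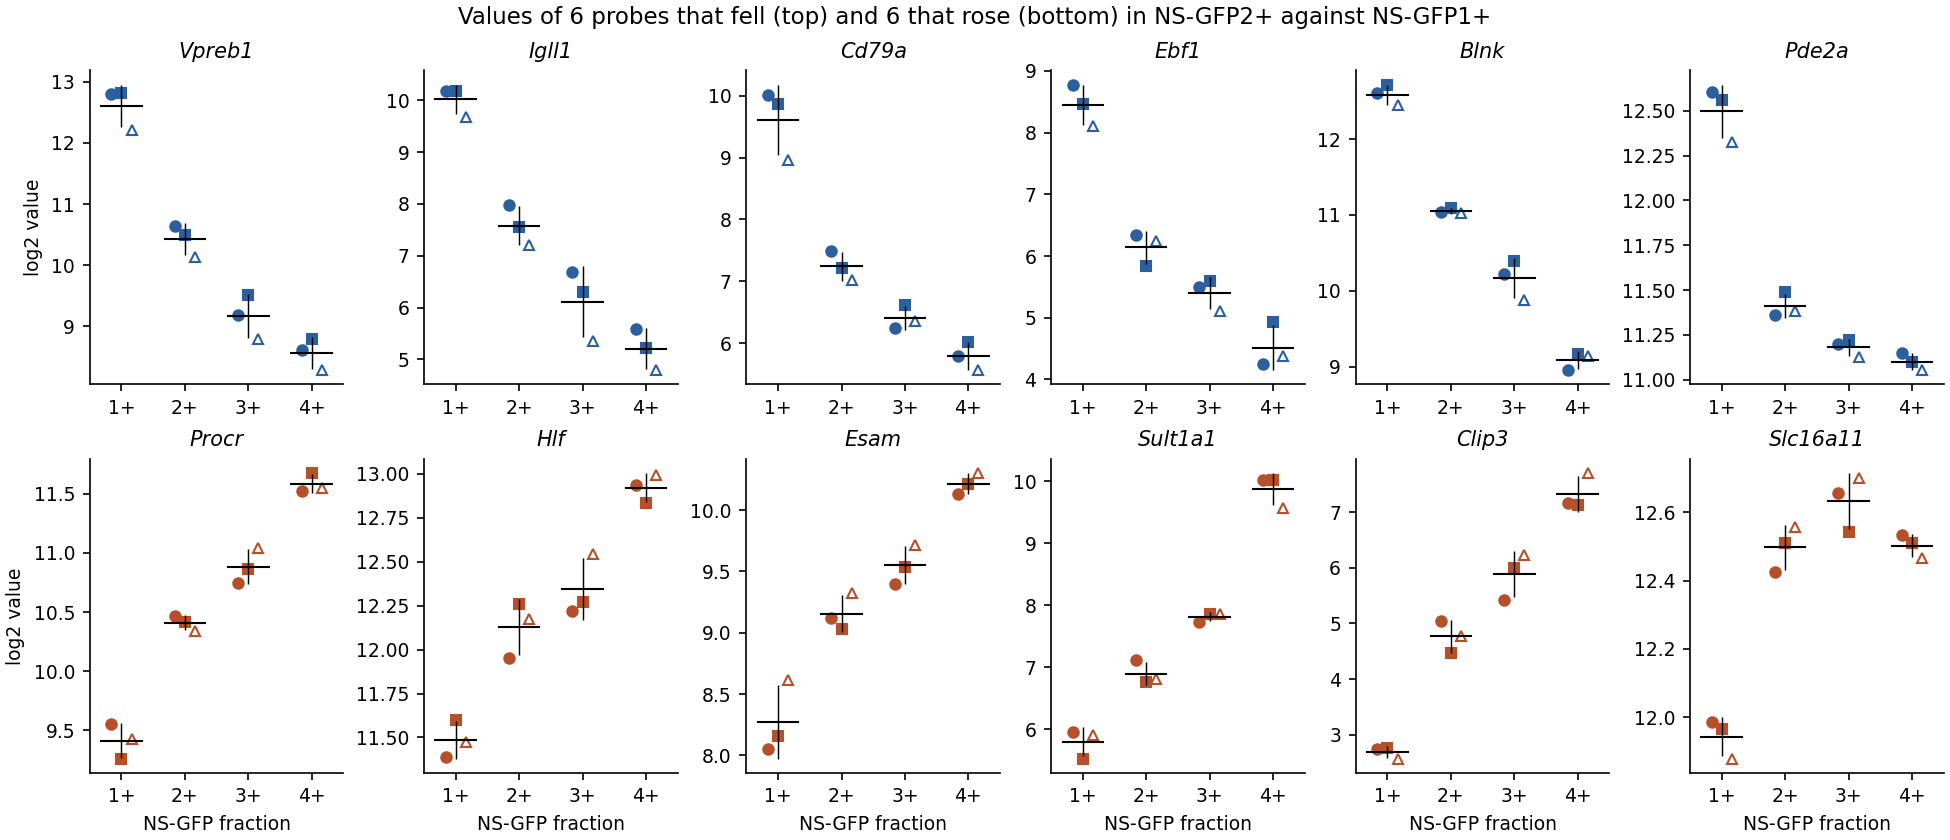
Log2 values of 6 probes that fell (top row) and 6 that rose (bottom row) at the first step, in the 3 samples of each fraction (circle, square and open triangle for replicates 1, 2 and 3), with the mean (line) and SD (bar). Blnk goes on down to a mean of 9.09 in NS-GFP4+, Pde2a goes from 11.41 in NS-GFP2+ to 11.10 in NS-GFP4+, and Procr climbs to 11.58.

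Gnl3, whose product gives the reporter its name, had 10.71, 10.39 and 10.51 in NS-GFP2+ and 10.63, 10.66 and 10.73 in NS-GFP1+. The difference of -0.14 did not pass (limma adjusted p = 0.9995) and lay between -0.22 and -0.05 under 22 alternative settings. None of the 24 tested nucleolar and ribosome biogenesis genes passed, and their probes had a median difference of -0.01. Kit differed by 0.04 and did not pass, and its sign turned when NS-GFP2+ replicate 3 or NS-GFP1+ replicate 1 or 2 was left out.

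The gene lists place these changes beside their pathways. The lists were chosen with earlier results of these data known, so their counts beside all tested probes are descriptive only. For comparison, the median of all tested probes was 0.01. In the B-cell list 6 of 10 genes were tested. Of these, 4 fell (Igll1, Cd79a, Ebf1 and Vpreb1) and none rose, where 0.177% of all tested probes fell. The median of the 6 probes was -2.25, but genes that are dim in NS-GFP2+ were tested only because they are brighter in NS-GFP1+. With the filter met in all columns 3 of these probes were left, with 1 fall and a median of -0.47, and without a filter the median of 10 probes was -1.80 with 3 falls. The summed linear level of the list's 10 probes was 5883 to 6382 in NS-GFP2+ and 11425 to 16120 in NS-GFP1+, which do not overlap. Such a sum gives most weight to its brightest probes. Sums did not overlap either in the multipotent and lymphoid-primed list (198318 to 205013 in NS-GFP2+, 237796 to 248818 in NS-GFP1+). The same held for the granulocyte and monocyte list (326532 to 343676 in NS-GFP2+, 384575 to 468252 in NS-GFP1+). It also held for the interferon list, which was higher in NS-GFP2+ (85322 to 93774 against 66318 to 75613). In bulk samples fewer cells of a type and less RNA per cell cannot be told apart. In the multipotent and lymphoid-primed list 1 of 18 tested genes fell, Blnk, and 25 of 26 probes were lower, against 48.3% of all tested probes. Its median was -0.19, and ran from -0.29 (NS-GFP2+ replicate 2 left out) to -0.13 (NS-GFP1+ replicate 2 or NS-GFP2+ replicate 3 left out). With the block 5 fell, among them Rag1 and Il7r. Rag1, the recombinase of antigen receptor genes, had 6.88, 6.38 and 6.63 in NS-GFP2+ and 9.11, 8.76 and 8.71 in NS-GFP1+, a difference of -2.23 (limma adjusted p = 0.0568, and 0.0368 with the block). Il7r, the interleukin 7 receptor, differed by -1.01 (adjusted p = 0.412, and 0.0101 with the block). The cytokine receptor Flt3 and the surface marker Cd34 differed by -0.19 and 0.06 on their brightest probes and did not pass. In the granulocyte and monocyte list 1 of 18 genes fell, Irf8, 21 of 22 probes were lower and the median was -0.37, or -0.23 with NS-GFP1+ replicate 3 left out.

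In the stem-cell list 5 of 24 tested genes rose (Procr, Hlf, Esam, Cdkn1c and Sult1a1), where 0.239% of all tested probes rose, and none fell. Of its 29 probes 26 were higher, against 51.7% of all tested probes, with a median of 0.37. That median ran from 0.29 (NS-GFP2+ replicate 3 left out) to 0.50 (NS-GFP1+ replicate 3 left out). Such a share was not particular to this list. Higher probes were 12 of 12 in the megakaryocyte, 18 of 19 in the interferon and 9 of 10 in the mature neutrophil and macrophage list. They were 14 of 16 in the immediate early, 13 of 17 in the erythroid and 19 of 39 in the S and G2M list. With the block 9 rose, and with the spike-in scaling none did, although the median there was 0.39. Fitted on NS-GFP2+ and NS-GFP1+ alone, 1 gene of the list rose. The calls of Hlf, Cdkn1c and Esam were lost under 16, 17 and 13 of 22 alternative settings, those of the 2 Sult1a1 probes under 6 and 16 of 21, and that of Procr under 1 of 22. With NS-GFP2+ replicate 3 left out 1 gene of the list rose, as with NS-GFP1+ replicate 2 or NS-GFP2+ replicate 1 left out, and 2 did with NS-GFP1+ replicate 1, NS-GFP2+ replicate 2, NS-GFP3+ replicate 1 or 2 or any NS-GFP4+ sample left out. The list's summed linear level was 39808 to 50670 in NS-GFP2+ and 30753 to 45089 in NS-GFP1+, which overlap. Among the members that did not pass were Mllt3 at 0.44 (adjusted p = 0.0539) and Mecom at 0.89 (adjusted p = 0.574), both transcriptional regulators, and the surface marker Slamf1 at 0.27, whose values lay in the dim part of the array.

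Markers of other cells moved with some of these groups. None of the 10 megakaryocyte and none of the 14 erythroid genes tested passed. Their medians of 0.28 and 0.25 changed with the sample left out. With NS-GFP2+ replicate 3 left out they were 0.05 and 0.17, and with NS-GFP1+ replicate 3 left out 0.63 and 0.39. The summed erythroid list was 33766 to 49871 in NS-GFP2+ and 25976 to 31126 in NS-GFP1+, which do not overlap. The summed megakaryocyte list was 5863 to 12590 in NS-GFP2+ and 4936 to 10182 in NS-GFP1+, with the highest sample of each fraction in replicate 3. None of 9 mature neutrophil and macrophage genes passed. Their median was 0.69, and it was 0.15 with NS-GFP1+ replicate 2 left out, 0.22 with NS-GFP2+ replicate 3 left out and 1.03 with NS-GFP2+ replicate 2 left out. Their sums were 34042 to 99686 in NS-GFP2+ and 17158 to 52026 in NS-GFP1+. These sums overlap, and replicate 3 was the highest in both fractions. The part of these cells in the first-step differences was not tested.

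Genes of the cell cycle differed little. None of the 32 tested S and G2M genes passed and their median difference was -0.0011. In the list of inhibitors and quiescence genes, Cdkn1c rose and Foxo1 fell. The interferon list had 1 riser of 16 genes, Ifitm1, whose 2 calls were lost under 18 and 12 of 22 alternative settings. The list's median was 0.21, and it was 0.12 with NS-GFP1+ replicate 3 or NS-GFP2+ replicate 1 left out. None of the 20 tested genes for adhesion, signalling and niche receptors passed, nor did any of the 16 immediate early genes.

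**Figure D3:**
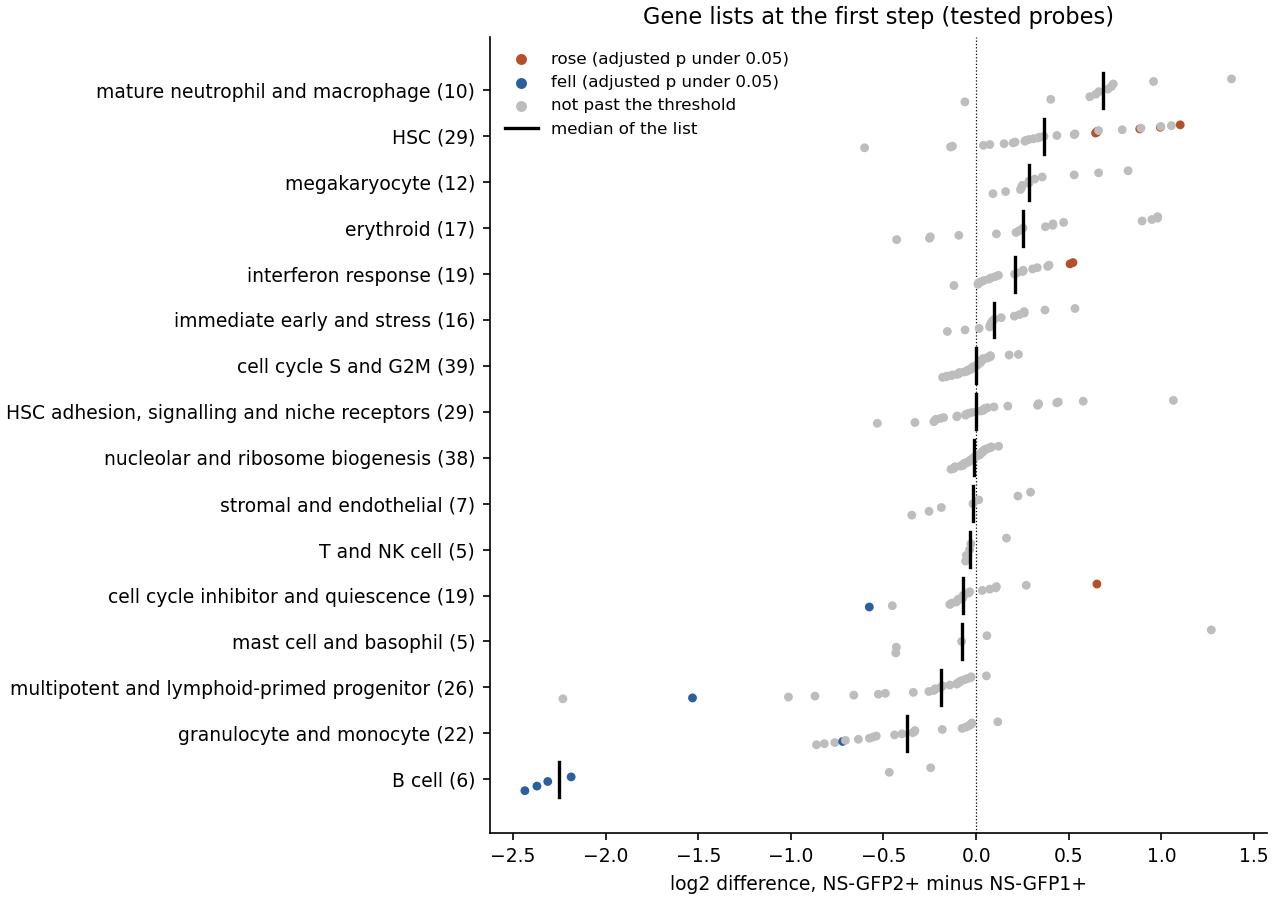
Log2 differences (NS-GFP2+ minus NS-GFP1+) of the tested probes of 16 gene lists, 1 point a probe, with the list's median as a bar and the number of probes in brackets. Probes past the threshold are coloured. The B-cell list at the bottom has a median of -2.25 over 6 probes, which was -0.47 over the 3 that met the filter in all columns.

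The promoters were searched for 6 motifs on both strands. Of the changed genes, 25 of 28 that fell and 29 of 40 that rose had a window in the RefSeq table, and 1 start was taken for each gene. The EBF1 core CCCNNGGGA was in 2 of 25 falling promoters (Chst3 and Foxo1), in 1 of 29 rising ones (Tgfbi) and in 5.53% of 27025 promoters. The E-box CAGCTG was in 4 falling promoters (Cx3cr1, Igll1, Prkcb and Vpreb2) and 4 rising ones (Coro2b, Fgfr3, Pdcd1lg2 and Procr), against 12.8% of all. The LEF/TCF core CTTTGA was in 2 falling (Mefv and Tifa) and 2 rising (Ifitm1 and Inha) promoters, against 14.1% of all. A PU.1 site spelled GAGGAAGT was in none of either set, against 2.44% of all. The same held for the letters AGATAAG, known from erythroid promoters (2.78% of all), and for an ETS site spelled CCGGAAGT (2.93% of all). No matches of different motifs overlapped in these promoters. These counts describe letters in a short window and were not tested.

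The next question was whether the first-step probes go on changing. No probe passed for NS-GFP3+ against NS-GFP2+ (0% of the 20920, limma), where 926 had an unadjusted p under 0.05 and the smallest adjusted p was 0.0569. With the replicate block 36 did (0.172%), 12 higher (0.0574%) and 24 lower (0.115%). That comparison shares the NS-GFP2+ samples with the first step, so its values stand only beside it. The 50 rising probes had a median difference of 0.32 there (-0.10 to 1.12), and the 37 falling ones a median of -0.56 (-1.61 to 0.34). The comparison of NS-GFP4+ with NS-GFP3+ shares no sample with the first step, though one estimate of spread serves both. It had 223 probes past the threshold (1.07%), 94 higher (0.449%) and 129 lower (0.617%), and with the block 1057 (5.05%), 526 higher (2.51%) and 531 lower (2.54%).

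Of the 50 first-step rises, 8 had met the filter only in NS-GFP3+ or NS-GFP4+, so their later values helped to choose them. They were Clip3, Inha, Ephb4, Rps6ka6, Grb10, Rbfox2, Nap1l3 and 1 probe with no gene name. The other 42 met it in NS-GFP1+ or NS-GFP2+, a restriction chosen after seeing the data, and so did 20354 of the tested probes. Of the 42, 26 rose again at the last step and 0 fell, and with the block 35 rose again. Without the block 0.359% of the 20354 rose at that step and 0.629% fell. Their NS-GFP4+ and NS-GFP3+ samples did not overlap in the rising direction for 38, against 6.73% of the 20354 (7.28% of all tested probes). In the opposite direction this held for 1, Slc16a11, against 9.38% of the 20354. The median difference of the 42 was 0.62 (-0.13 to 2.06), against -0.01 over the 20354. With the filter met in all columns, 20 rises and 17 falls were left at the first step and 15 of these 37 passed again. With the spike-in scaling the median of all tested probes at this step moved to -0.27, and differences there are relative to that shift.

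All 37 first-step falls had met the filter in a first-step fraction, and 10 fell again at the last step and 0 rose. Over all tested probes 0.617% fell at that step. With the block 18 fell again and 1 rose. Fractions did not overlap in the falling direction for 21, against 9.28% of all tested probes, and in the opposite one for 1, against 7.28%. The median difference of the 37 was -0.60 (-1.52 to 0.43). Of the 87 probes, 38 passed at both steps, all in the same direction, which is 43.7% of the 87 and 17.0% of the 223. The 87 include the 8 rises that met the filter only in NS-GFP3+ or NS-GFP4+. Without those, 26 rises and 10 falls passed at both steps. Whether rises go on more often than falls was not tested.

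Sult1a1 had the largest last-step rise of the 50. The probe with the larger first-step change had 10.03, 10.02 and 9.58 in NS-GFP4+ and 7.74, 7.86 and 7.86 in NS-GFP3+, a difference of 2.06 after 1.10 at the first step (limma adjusted p = 0.000745). Over the 4 fractions its mean ran 5.80, 6.90, 7.82 and 9.88. Clip3 rose again by 1.44 (limma adjusted p = 0.02), Tcf15 by 1.29 (limma adjusted p = 0.0142), Cdkn1c by 1.07 (limma adjusted p = 0.00431) and Procr by 0.70 (limma adjusted p = 0.0135). Clip3 was among the rises that had met the filter only in the later fractions. Cdkn1c measured 9.66, 9.78 and 9.88 in NS-GFP4+ against 8.61, 8.61 and 8.88 in NS-GFP3+, none of them overlapping. Hlf rose by 0.58 (limma adjusted p = 0.0409), while Esam, at 0.67, did not pass (adjusted p = 0.0654), but passed with the block (adjusted p = 0.00356).

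Among the rises, 4 probes stayed within 0.2 of 0 at the last step. Slc16a11, a monocarboxylate transporter, rose by 0.55 at the first step (limma adjusted p = 0.00904) and then differed by -0.13, with 12.53, 12.51 and 12.47 in NS-GFP4+ and 12.66, 12.54 and 12.70 in NS-GFP3+. Ctla2a, an inhibitor of cysteine proteases, and Emcn, an endothelial sialomucin also found on stem cells, differed by 0.08 and 0.12 after first-step rises of 0.43 and 0.45. The fourth was Gm5600 at -0.01.

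Some B-lineage genes fell again at the last step. Blnk fell by a further 1.07, to 8.96, 9.17 and 9.14 in NS-GFP4+ against 10.22, 10.40 and 9.88 in NS-GFP3+ (limma adjusted p = 0.0052). Vpreb3 fell by 0.90 (limma adjusted p = 0.0341) and Ly6d by 1.12 (limma adjusted p = 0.0327). Cd79a, Igll1, Vpreb1 and Ebf1 had differences of -0.61, -0.91, -0.60 and -0.89 and did not pass, with adjusted p from 0.118 to 0.388. With the block Igll1 (adjusted p = 0.00831) and Vpreb1 (adjusted p = 0.00773) passed. Vpreb2 differed by 0.04, and the Lef1 probe with the smaller first-step fall by 0.01. The other Lef1 probe differed by -1.52 (adjusted p = 0.0663, and 0.0104 with the block). The Lef1 probe with the smaller fall measured 6.27, 6.00 and 5.86 in NS-GFP4+ and 6.08, 5.99 and 6.03 in NS-GFP3+, about the column median. The summed B-cell list was 4044 to 4169 in NS-GFP4+ and 4219 to 4819 in NS-GFP3+, which do not overlap either.

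Irf8 fell again at the last step. It had 11.06, 11.03 and 10.84 in NS-GFP4+ and 12.16, 12.15 and 11.72 in NS-GFP3+, a difference of -1.03 (limma adjusted p = 0.0053) after -0.72. Cx3cr1 fell by 1.26 (limma adjusted p = 0.00431), Mefv by 1.07 (limma adjusted p = 0.0112) and Ncf1 by 0.78 (limma adjusted p = 0.000984), and the glucose transporter family member Slc2a6 by 1.06 (limma adjusted p = 0.000984). Aif1, in contrast, differed by -0.04 and did not pass.

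Other falls were followed by little difference at the last step. Pde2a had means of 12.50, 11.41, 11.18 and 11.10 over the 4 fractions, and its last-step difference was -0.08 (adjusted p = 0.801). Foxo1 differed by -0.03 there. Chchd10, a protein of the mitochondrial intermembrane space, fell by 0.72 at the first step (limma adjusted p = 0.00714) and differed by 0.19 at the last. The 2 Prkcb probes had last-step differences of 0.23 and 0.43, neither past the threshold, though the second passed with the block (adjusted p = 0.0387). Their means over the 4 fractions were 9.04, 7.99, 8.06 and 8.29 for one and 8.65, 7.70, 7.54 and 7.97 for the other.

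**Figure D4:**
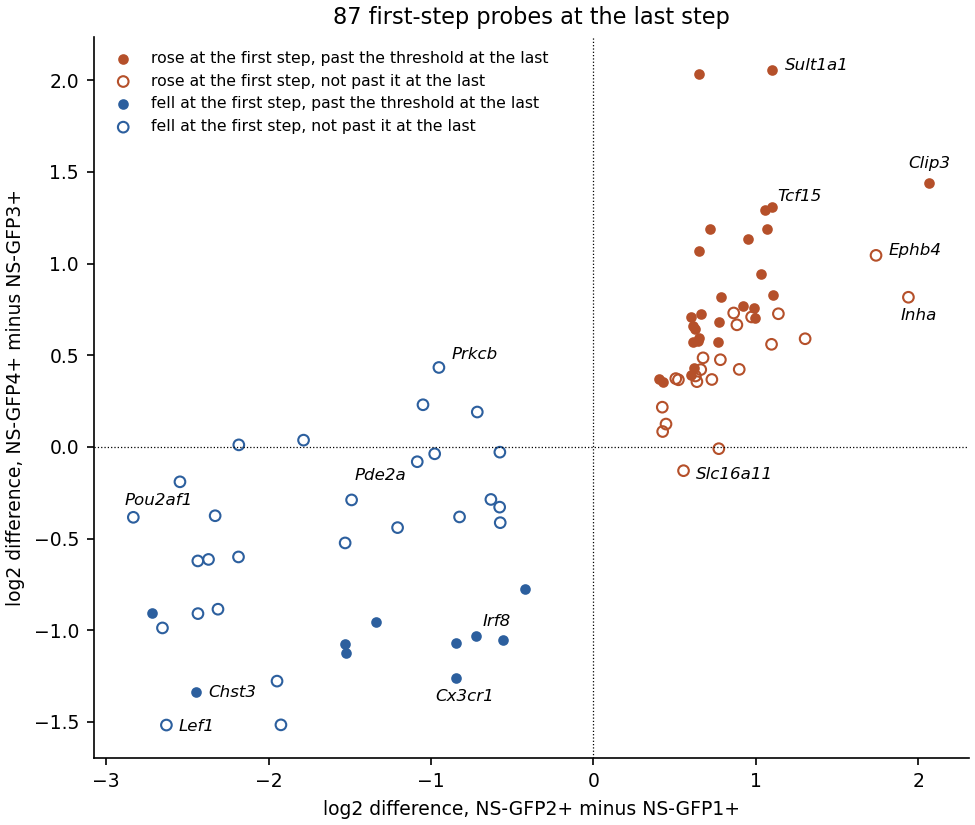
The 87 first-step probes, by their first-step difference (NS-GFP2+ minus NS-GFP1+, horizontal axis) and their last-step difference (NS-GFP4+ minus NS-GFP3+, vertical axis), both log2. Filled points passed the threshold at both steps, 28 of the 50 rises and 10 of the 37 falls, and no filled point lies in a quadrant of opposite signs. The 50 rises include 8 that met the filter only in NS-GFP3+ or NS-GFP4+, and 26 of the other 42 passed at both steps.

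**Figure D5:**
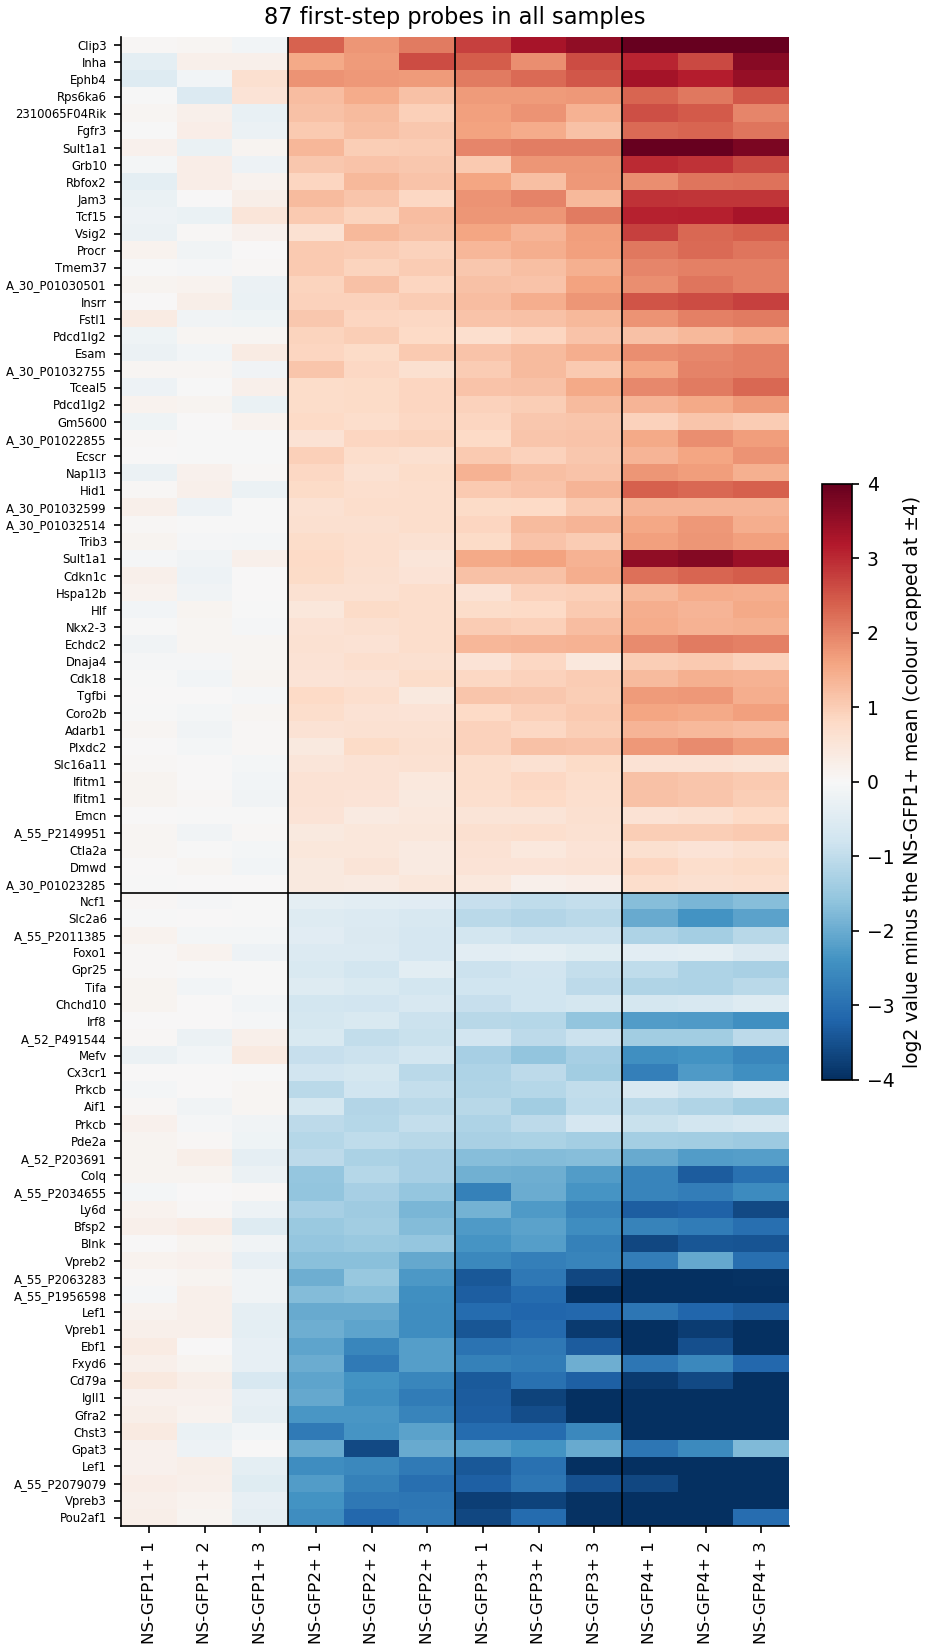
Log2 value minus the NS-GFP1+ mean for the 87 first-step probes (rows, ordered by their first-step difference) in all 12 samples (columns, by fraction and replicate), with colour capped at 4 either way. The probes were called on NS-GFP2+ against NS-GFP1+, which separate in every one of the 50 rises and 37 falls. Of the rises, 8 had met the filter only in NS-GFP3+ or NS-GFP4+.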

How the data were processed

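RNA of sorted LSK cells was run on single-colour Agilent arrays, per the labels. The authors deposited a value table of log2 signals, which was tested, and per-array files of linear intensity per probe, not normalised between arrays, used for alternatives. The method that made the table is not given in the sources used here. Its columns and the per-array files ranked probes identically (Spearman 1) in 11 of 12 samples, and the file of NS-GFP3+ replicate 3 repeated that of NS-GFP2+ replicate 3. Depth does not apply to arrays, and 3 samples a fraction limit the precision.

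A mean per fraction was fitted with limma 3.58.1 (R 4.3.3, lmFit and eBayes) to all 12 columns with 8 residual degrees of freedom. P-values were adjusted by Benjamini-Hochberg over all 20920 tested probes, with a threshold of 0.05. Deviations from fraction means correlated in the same-numbered pairs of NS-GFP2+ and NS-GFP1+ with r of 0.16 to 0.68, of NS-GFP3+ and NS-GFP2+ with 0.41 to 0.75 and of NS-GFP4+ and NS-GFP3+ with 0.30 to 0.69. Numbers were therefore taken to pair samples in the block fit and in the signs of same-numbered pairs. Differently numbered arrays reached 0.34 in the first of these comparisons and 0.37 in the last, above the lowest same-numbered pair of each. The main fit did not use this pairing, so its p-values are unpaired. Symbols came from the platform annotation (24406 probes with 1 symbol, 17616 not listed), and 24198 gene IDs matched RefSeq. Probe sequences were not used. The fit was tested on simulated data with independent noise in each array, which did not cover the correlation between same-numbered arrays. Plots used matplotlib 3.10.9.

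Named genes were the probes past the threshold with the 15 greatest rises and the 15 greatest falls, of the same sign in 3 of 3 pairs, list members past it, Gnl3 and Kit. Ly6a, also in the rule, was not analysed here. The members and the lists were chosen with earlier results of these data known, and the promoter motifs and other named genes after values were seen.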

Additional observations from a re-analysis of the deposited data

How the results depend on the processing

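For the first step, 87 probes passed. The count was 473 with the replicate block, 534 with array weights and 155 from replicates 1 and 2 only. It was 43 without the filter on dim probes, 37 with the filter met in all columns and 36 also at 2-fold. Fitted on NS-GFP2+ and NS-GFP1+ alone, where the spread has fewer degrees of freedom, 27 passed, 4 higher and 23 lower. Leaving out 1 sample gave 36, 32 and 18 for NS-GFP2+ (replicates 1, 2 and 3), 27 for both replicate 1 and replicate 2 of NS-GFP1+, 57 and 48 for NS-GFP3+ (replicates 1 and 2) and 56, 50 and 55 for NS-GFP4+ (replicates 1, 2 and 3), in a whole range of 18 to 88. The other settings gave 69 to 86.

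For NS-GFP3+ against NS-GFP2+ (0 called, 926 at an unadjusted p under 0.05) the count was 36 with the replicate block, 13 with array weights, 1 from per-array files at the 75th percentile, 37 with spike-in scaling, 2 from replicates 1 and 2, and 0 to 2 with 1 sample left out. For NS-GFP4+ against NS-GFP3+ (223) it was 1057 with the block, 1744 with array weights, 44 without the filter, 128 with the filter in all columns, 359 from the 75th percentile of the per-array files, 585 from replicates 1 and 2, 63 at 2-fold, 21 on those fractions alone, and 43 to 349 with 1 sample left out. Spike-in scaling split this step into 67 higher and 230 lower.

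First-step probes called again in the same direction at the last step (38) numbered 306 with the replicate block, 4 without the filter, 15 with the filter in all columns, 293 with array weights, 92 from replicates 1 and 2, 8 at 2-fold, and 6 to 41 with 1 sample left out. The 38 include Clip3 and Grb10, which had met the filter only in the later fractions. The per-array settings also left out NS-GFP3+ replicate 3, so source, scaling and samples changed together there. Causes were not tested. Over 40 named probes and 22 settings, 544 values kept direction and side of the threshold, 310 kept direction but missed it, and 3 reversed, all for Kit, which was not called. Kit ranged from -0.13 to 0.28 with 1 sample left out, and the reversals were -0.09 (NS-GFP2+ replicate 3 left out), -0.04 and -0.13 (NS-GFP1+ replicates 1 and 2). Vpreb3, Vpreb1 and Blnk passed under all 22 settings. Signal over background limits the dim probes, for which no detection flag was used.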
